A study of Mus musculus with 15 samples.

Results

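Costimulatory and inhibitory ligands are the surface proteins with which a B cell tells a T cell to go on or to stop, and 9 genes for such proteins were followed here through germinal centre B cells and the plasmablasts derived from them. The genes were chosen by symbol (Cd80, Cd86, Cd83, Icosl, Cd274, Pdcd1lg2, Tnfsf9, Efnb1 and Tnfrsf14), which found all 9 among the 23420 genes of the deposited table. RNA was measured by molecular-barcode sequencing in 15 libraries, 3 in each of 5 groups, each from 100 cells sorted from draining lymph nodes on day 12 after transfer of CD45.1+ B1-8hi (KI/+) B cells into C57BL6 mice and immunization with NP-CGG/CFA. The B1-8hi knock-in gives the transferred cells a receptor for the hapten NP in all 5 groups.

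The GC-PB group holds plasmablasts sorted as CD138hi CD44hi tdTomato+, from B1-8hi (KI/+) donors that also carried the S1pr2-ERT2cre Tg transgene and the reporter ROSA-Ai14 (KI/+), and their recipients received tamoxifen on days 6, 7 and 8. The tdTomato mark depends on a Cre driven by S1pr2, a gene of germinal centre B cells, so it labels cells that used this promoter while the drug was given. The other 4 groups came from B1-8hi (KI/+) Bcl6-YFP (KI/+) donors and were sorted as B220+ CD38lo GL7hi. Fraction 1 was Bcl6lo CD69hi, Fraction 2 Bcl6hi CD69hi and Fraction 3 Bcl6hi CD69lo, all of them light zone cells (CXCR4lo CD86hi), and DZ stands for dark zone cells (CXCR4hi CD86lo). CD86 protein was thus part of the gate, and the level of Cd86 RNA in a light zone fraction against DZ checks the sort and is no independent finding. The labels call the replicates independent library preparations and do not name separate animals, so that the p-values speak of the spread among library preparations, which may be only technical.

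In the light zone, germinal centre B cells present antigen to follicular helper T cells and compete for their help, and in the dark zone they divide. CD80 and CD86 bind CD28, which activates T cells, and CTLA-4, which restrains them, while ICOSL binds ICOS and supports the T cell contact. PD-L1 (Cd274) and PD-L2 (Pdcd1lg2) bind the inhibitory receptor PD-1, which follicular helper T cells carry at a high level, and 4-1BBL (Tnfsf9) binds the costimulatory receptor 4-1BB. CD83 keeps CD86 and MHC class II on the surface, ephrin-B1 (Efnb1) is a membrane ligand for Eph receptors that acts on T cell entry and retention in the germinal centre, and HVEM (Tnfrsf14) binds the inhibitory receptor BTLA.

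The sequences before the RefSeq gene starts of members were read from the RefSeq table of GRCm38.p6, which matched 6 of the 9 members. Of these, Efnb1 and Icosl are shown because their transcripts moved together across the groups at equal library totals. Cd274 is shown because it was high in GC-PB, where both were low, and Cd80 because it held the only match to a searched motif. Each line gives the 250 bases before the start, 5′ to 3′, all on the plus strand, with capitals for the motif match.
Efnb1 (chrX:99135811-99136060): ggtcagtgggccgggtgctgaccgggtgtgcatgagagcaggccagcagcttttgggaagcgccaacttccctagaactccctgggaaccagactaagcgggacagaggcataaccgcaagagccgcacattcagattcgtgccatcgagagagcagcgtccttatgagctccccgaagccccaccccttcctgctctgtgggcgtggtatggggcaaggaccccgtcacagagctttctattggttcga
Icosl (chr10:78069118-78069367): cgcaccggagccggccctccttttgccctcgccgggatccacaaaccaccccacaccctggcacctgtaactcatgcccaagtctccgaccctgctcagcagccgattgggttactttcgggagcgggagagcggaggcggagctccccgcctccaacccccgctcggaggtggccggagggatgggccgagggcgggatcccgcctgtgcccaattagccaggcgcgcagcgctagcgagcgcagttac
Cd274 (chr19:29367188-29367437): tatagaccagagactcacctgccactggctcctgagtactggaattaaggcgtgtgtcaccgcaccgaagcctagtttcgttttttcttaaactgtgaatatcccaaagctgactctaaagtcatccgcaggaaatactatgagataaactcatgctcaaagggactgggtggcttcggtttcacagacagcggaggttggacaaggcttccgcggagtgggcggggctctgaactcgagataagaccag
Cd80 (chr16:38458683-38458932): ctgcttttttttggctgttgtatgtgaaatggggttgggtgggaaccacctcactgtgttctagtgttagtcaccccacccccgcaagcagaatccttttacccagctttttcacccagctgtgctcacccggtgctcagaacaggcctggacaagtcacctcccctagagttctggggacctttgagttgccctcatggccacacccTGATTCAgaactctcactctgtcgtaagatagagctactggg
Windows from 250 bases before to 50 after the start were searched on both strands for GGG and TTCC with any 3 bases between (NF-kB), TGANTCA (AP-1 and BATF) and CACGTG (E-box), which 5.56%, 7.81% and 7.15% of the 32851 windows in that table hold. The match in Cd80 is an AP-1 and BATF motif that starts at position -42 from the RefSeq start. In the GENCODE positions given below, Cd80 starts at 38455561 on the plus strand, so this window lies inside the gene. The window of Tnfrsf14 (154928028 to 154928327) also lies inside its gene, which starts at 154928563 on the minus strand. The stretch shown for Icosl runs past the GENCODE start of that gene at 78069302. The windows of Efnb1, Icosl, Cd274, Pdcd1lg2 and Tnfrsf14 held none of these letters. A match is a string of letters in this window, and binding was not measured.

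Levels below are the deposited values scaled so that every library has the same total, with the ribosomal RNA precursor Rn45s left out of the total. Deposited values were close to whole multiples of 1 constant per library, read here as the worth of 1 molecule. On this reading the libraries held 184103 to 376992 molecules, and 1 molecule was worth 0.107 to 0.233 at equal totals. Changes are differences of log2(level + 1) ± SE from limma in a fit of all groups, where a gene passed if its p, adjusted by Benjamini-Hochberg over the 11190 genes tested, was under 0.05. The pseudocount makes them smaller than the ratio of the levels, which is given as the fold. In libraries of 100 cells, fewer cells with a transcript and less of it per cell cannot be told apart. The 8 marker genes of plasmablasts summed to 2872 to 4145 in GC-PB, against 28.8 to 39.3 in Fraction 1. The 8 germinal centre markers summed to 3.73 to 6.50 in GC-PB, 17.8 to 25.1 in Fraction 1, 57.9 to 66.8 in Fraction 2, 82.2 to 95.2 in Fraction 3 and 89.7 to 96.1 in DZ. The libraries also divide in a way that the labels do not name. Xist, the RNA of the inactive X chromosome, was at 8.94 to 14.4 in the 6 GC-PB and Fraction 1 libraries and at 0 in the 9 others, where the Y-linked Ddx3y was at 3.91 to 6.21, and the constant was 0.305 to 0.362 in the first 6 libraries and 0.105 to 0.139 in the 9 others. Every comparison of GC-PB or Fraction 1 with Fraction 2, Fraction 3 or DZ crosses this divide, so that there the divide and the cell group cannot be told apart. GC-PB also differs from all other groups in donor genotype and in tamoxifen, which the labels name for GC-PB only. In every GC-PB comparison, also against Fraction 1, these and the cell group cannot be told apart. GC-PB replicate 1 stood apart from its group, with a chi-square per degree of freedom over the molecule numbers of 2.77 and 2.18 against replicates 2 and 3, where the other pairs within a group lay between 1.07 and 1.42.

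Cd86 and Cd83 were higher in light zone cells than in dark zone cells. Cd86 (chromosome 16, 36603869 to 36666081, minus strand, GRCm38) was at 0 in all 3 GC-PB libraries, at 6.71, 7.74 and 7.26 in Fraction 1, at 3.73, 6.11 and 4.81 in Fraction 2, at 4.78, 5.43 and 5.28 in Fraction 3, and at 1.28, 2.76 and 0.723 in DZ. The 9 light zone libraries all lay above the 3 DZ libraries, and the DZ libraries above the plasmablasts. Averages were 7.24 ± 0.517 in Fraction 1, 4.89 ± 1.19 in Fraction 2, 5.16 ± 0.344 in Fraction 3 and 1.59 ± 1.05 in DZ (SD, n = 3 each). Cd86 was higher in Fraction 3 than in DZ by 1.33 ± 0.22 (3.25-fold, adjusted p = 0.00378) and higher in Fraction 2 than in DZ by 1.24 ± 0.22 (3.08-fold, adjusted p = 0.00182).

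Cd83 (chromosome 13, 43784775 to 43803132, plus strand) was not part of the gate and also separated light zone from dark zone libraries. Its level was 1.63, 0.591 and 0 in GC-PB, 17.8, 15.3 and 19.5 in Fraction 1, 13.4, 11.8 and 12.5 in Fraction 2, 11.1, 12.3 and 12.7 in Fraction 3, and 2.24, 2.62 and 4.05 in DZ. No light zone library overlapped with DZ, and no DZ library with GC-PB. Cd83 rose in Fraction 3 to 12.0 ± 0.795 against 2.97 ± 0.953 in DZ (SD, n = 3 each), a difference of 1.74 ± 0.24 (4.05-fold, adjusted p = 0.00107). In Fraction 2 it averaged 12.5 ± 0.802, higher than in DZ by 1.79 ± 0.24 (4.22-fold, adjusted p = 7.21e-05). The ranges of Fraction 2 and Fraction 3 overlapped, with a difference of 0.06 ± 0.24 (adjusted p = 0.979). For Cd86 that difference was -0.08 ± 0.22 (adjusted p = 0.957). Across the 15 libraries, which share their groups and depth, the log2 levels of Cd86 and Cd83 had a Pearson correlation of 0.94.

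In Fraction 3 against DZ these 2 genes were the members that passed, both higher, beside 1.05% of all tested genes that passed in either direction and 0.572% that were higher. They were again the 2 that passed, both higher, in Fraction 2 against DZ, where 3.5% of all tested genes passed and 1.66% were higher. CD86 was part of the gate, so the pass of Cd86 checks the sort in both comparisons. Cd83 was thus the only member outside the gate that passed in the fit of all groups. The median difference of the 8 tested members was 0.13 in Fraction 3 against DZ and 0.08 in Fraction 2 against DZ, beside 0.00 and 0.01 over all tested genes. With members whose group was wholly at 0 set at their detection floor of 3 molecules per library, these medians were 0.11 and 0.02. When only the 6 libraries of each comparison were fitted, the calls of Cd86 and Cd83 in Fraction 3 against DZ and of Cd86 in Fraction 2 against DZ were lost. In that fit of Fraction 2 against DZ, Cd80 passed as lower, from 1 molecule in each DZ library against 0 in Fraction 2. Its adjusted p there ran from 0.0342 to 0.745 over all alternatives. Over all alternatives the adjusted p ran from 0.000662 to 0.212 for Cd86 and from 7.71e-05 to 0.0652 for Cd83 in Fraction 3 against DZ, and from 0.000176 to 0.121 for Cd86 in Fraction 2 against DZ.

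**Figure D1:**
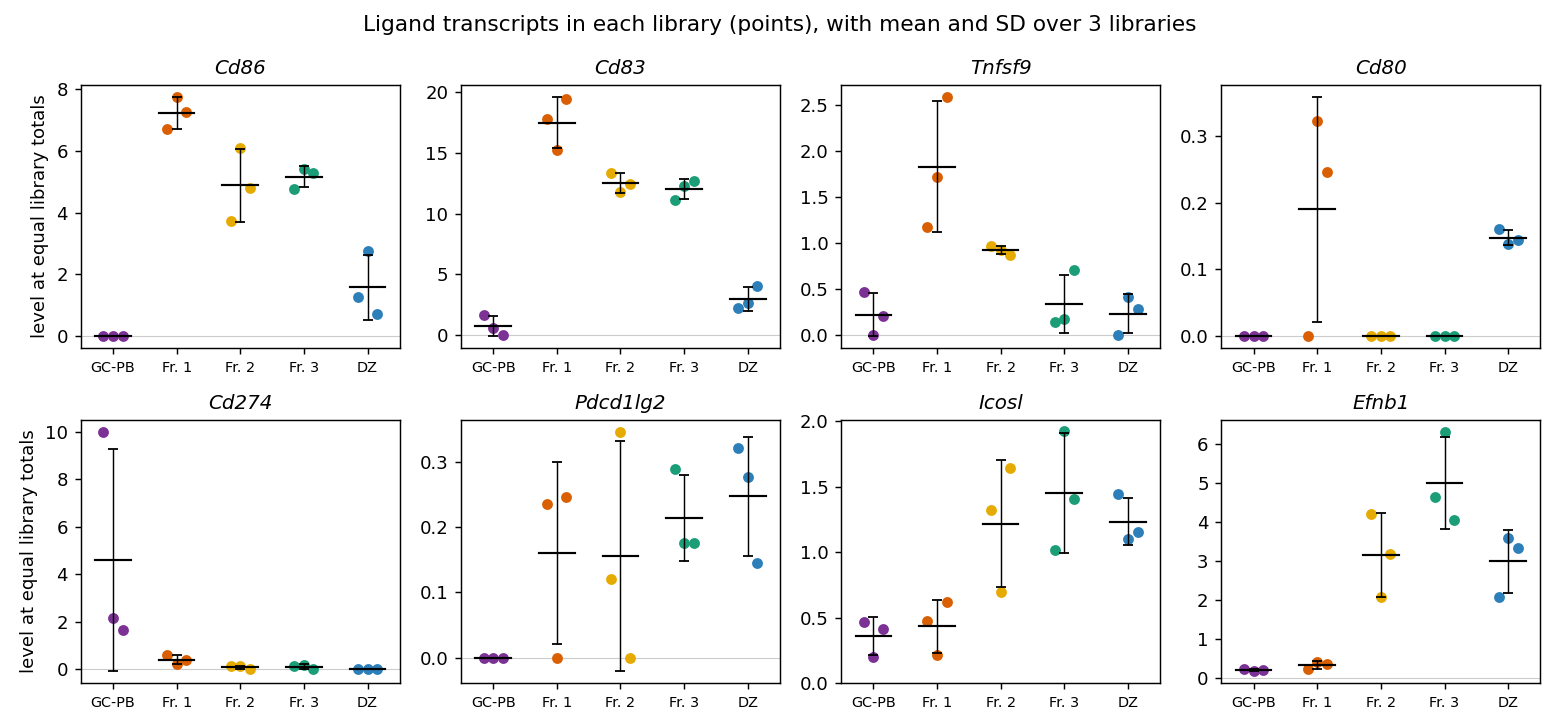
Each panel gives 1 ligand gene, with the level at equal library totals on the vertical axis and GC-PB, Fraction 1, Fraction 2, Fraction 3 and DZ from left to right; points are the 3 libraries of a group, and lines the mean and SD. Cd86 and Cd83 are high in the 3 light zone fractions and near or at 0 in GC-PB, Icosl and Efnb1 are low in GC-PB and Fraction 1 (as deposited, Icosl averages 1.18 in Fraction 1 and 0.980 in DZ), and Cd274 is high in GC-PB, with 1 library at 10.0.

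Between Fraction 1 and Fraction 2, which differ in the Bcl6 reporter and share high CD69, Cd86 and Cd83 were higher in Fraction 1 in every library at equal totals but did not pass. The difference was 0.50 ± 0.22 for Cd86 (1.48-fold, adjusted p = 0.188) and 0.45 ± 0.24 for Cd83 (1.40-fold, adjusted p = 0.300). On the values as deposited, where the median of all tested genes was 0.64 higher in Fraction 1, the same differences were 1.84 (adjusted p = 1.86e-06) and 1.85 (adjusted p = 3.39e-05), so the call of both rests on the scale. Over all alternatives the adjusted p in this comparison ran from 1.86e-06 to 0.505 for Cd86.

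Both genes were lower in plasmablasts than in Fraction 1. Cd86 had no molecule in the 3 GC-PB libraries, against 188 molecules in the 3 Fraction 1 libraries, and so was at least 10.4-fold lower, counted against the highest floor of 3 molecules in a GC-PB library (0.699). The fitted difference was -3.04 ± 0.22 (adjusted p = 5.36e-10), a size that depends on the pseudocount. Fraction 1 was sorted as CD86hi and the GC-PB gate did not use CD86, so the Cd86 difference is not independent of the gate. Cd83 averaged 0.740 ± 0.825 in GC-PB and 17.5 ± 2.11 in Fraction 1 (SD, n = 3 each), 23.6-fold lower, with a difference of -3.51 ± 0.24 (adjusted p = 1.75e-10). The GC-PB level came from 7, 3 and 0 molecules, near the floor, so the size of this fold is uncertain. Cd83 in GC-PB was also below DZ (-1.28 ± 0.24, 4.01-fold lower, adjusted p = 0.000201), a call that was lost when only those 6 libraries were fitted and whose adjusted p ran from 2.29e-06 to 0.0568 over all alternatives.

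Cd80, the second CD28 ligand (chromosome 16, 38455561 to 38496335, plus strand, 1789479 bases from Cd86), was near the limit of detection throughout. It had 0, 3 and 2 molecules in the Fraction 1 libraries and 1 molecule in each DZ library, and it was at 0 in GC-PB, Fraction 2 and Fraction 3. A count of 0 allows a level of up to 0.322 to 0.699 in a library, which covers every level measured for this gene. Its difference in GC-PB against Fraction 1 passed at -0.24 ± 0.09 (adjusted p = 0.0326), but Fraction 1 replicate 1 was at 0 as well, and the call was lost when any GC-PB library was left out, without Fraction 1 replicate 2 (-0.16) and without Fraction 1 replicate 3 (-0.20). Over all alternatives its adjusted p ran from 0.00114 to 0.182.

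Tnfsf9 (chromosome 17, 57105325 to 57107757, plus strand), the 4-1BB ligand, was highest in Fraction 1. Its level was 0.466, 0 and 0.207 in GC-PB, 1.18, 1.72 and 2.59 in Fraction 1, 0.963, 0.923 and 0.875 in Fraction 2, 0.145, 0.175 and 0.704 in Fraction 3, and 0, 0.414 and 0.289 in DZ. Every Fraction 1 library was above every other library, and every Fraction 2 library above those of Fraction 3 and DZ. Tnfsf9 fell in GC-PB to 0.224 ± 0.233 against 1.83 ± 0.711 in Fraction 1 (SD, n = 3 each), a difference of -1.20 ± 0.22 (8.15-fold lower, adjusted p = 0.000171). The GC-PB level came from 2, 0 and 1 molecules, under the floor of 3 molecules, so the size of this fold is uncertain. The smaller steps did not pass, at 0.53 ± 0.22 in Fraction 1 against Fraction 2 (1.99-fold, adjusted p = 0.159) and 0.54 ± 0.22 in Fraction 2 against Fraction 3 (2.70-fold, adjusted p = 0.342). Across 2 or more steps Fraction 1 was higher than Fraction 3 by 1.07 ± 0.22 (adjusted p = 0.00128) and higher than DZ by 1.18 ± 0.22 (adjusted p = 0.000459). On the deposited scale the difference of Fraction 1 against Fraction 2 was 1.60 (adjusted p = 4.21e-05, with a range of 4.21e-05 to 0.492 over all alternatives).

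The inhibitory ligand Cd274 was highest in plasmablasts. Cd274 (chromosome 19, 29367455 to 29388095, plus strand) was at 10.0, 2.17 and 1.65 in GC-PB, from 43, 11 and 8 molecules. It was at 0.588, 0.215 and 0.369 in Fraction 1, at 0.120, 0.115 and 0 in Fraction 2, at 0.145, 0.175 and 0 in Fraction 3, and at 0 in all 3 DZ libraries. Each plasmablast library was above each germinal centre library, and the 12 germinal centre libraries together held 14 molecules. Cd274 rose in GC-PB to 4.61 ± 4.69 against 0.391 ± 0.188 in Fraction 1 (SD, n = 3 each), by 1.71 ± 0.33 (11.8-fold, adjusted p = 0.000247), and the deposited scale gave 1.74 (adjusted p = 0.000440). The Fraction 1 level came from 5, 2 and 3 molecules, near the floor of 3 molecules, so the size of this fold is uncertain.

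The size of this difference rests in part on 1 library. GC-PB replicate 1, the library that stood apart, held the 43 molecules, and without it the difference was 1.07 (adjusted p = 9.11e-06). Klf2, which keeps resting lymphocytes quiescent, was at 14.9, 4.93 and 6.61 in the 3 GC-PB libraries, also highest in replicate 1, and its part in the Cd274 level was not tested. When only the GC-PB and Fraction 1 libraries were fitted the call was lost, and over all alternatives the adjusted p ran from 9.11e-06 to 0.0655.

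Pdcd1lg2 (chromosome 19, 29410919 to 29471161, plus strand) starts 22823 bases after the end of Cd274 and did not share its level. The 15 libraries held 17 molecules of it, 0 in GC-PB, 4 in Fraction 1, 4 in Fraction 2, 4 in Fraction 3 and 5 in DZ. Levels were at most 0.346 in any library, and none of the 5 comparisons passed. GC-PB against DZ gave -0.32 ± 0.11 (adjusted p = 0.0353), with both groups under the floor and with adjusted p up to 0.234 over the alternatives.

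Tnfrsf14 (chromosome 4, 154921933 to 154928563, minus strand) was listed at 0 in all 15 libraries and entered no test. A count of 0 allows a level of up to 0.322 to 0.699 in each, so a low level was not detectable at this depth. Btla, whose product is its receptor, averaged 0.618 in GC-PB, 3.78 in Fraction 1, 5.58 in Fraction 2, 5.98 in Fraction 3 and 6.06 in DZ.

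Icosl and Efnb1, which act on the follicular helper T cell contact, were low at equal totals in Fraction 1 as well as in plasmablasts. Efnb1 (chromosome X, 99136130 to 99148991, plus strand) was at 0.233, 0.197 and 0.207 in GC-PB, 1 molecule in each, and at 0.235, 0.430 and 0.369 in Fraction 1. It was at 4.21, 2.08 and 3.17 in Fraction 2, at 4.63, 6.31 and 4.05 in Fraction 3, and at 2.08, 3.59 and 3.33 in DZ. The 6 GC-PB and Fraction 1 libraries all lay below the 9 others, with no overlap. Efnb1 fell in Fraction 1 to 0.345 ± 0.0996 against 3.15 ± 1.07 in Fraction 2 (SD, n = 3 each), a difference of -1.60 ± 0.22 (9.15-fold lower, adjusted p = 7.64e-05). The Fraction 1 level came from 2, 4 and 3 molecules, near the floor of 3 molecules, so the size of this fold is uncertain.

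The split of the GC-PB and Fraction 1 libraries from the others is the one that Xist and Ddx3y draw. The fall of Efnb1, itself on the X chromosome, thus cannot be told apart from the divide between the libraries. On the deposited scale, where Fraction 1 libraries have the larger totals, the difference was still -1.07 (adjusted p = 0.000598). Efnb1 was the 1 member of 8 that passed in Fraction 1 against Fraction 2, beside 9.03% of all tested genes that passed in either direction and 5.25% that were lower. The median difference of the members there was 0.30, or 0.19 with members at their floor, beside -0.04 over all tested genes. Within 1 side of the divide, Efnb1 was 0.59 ± 0.22 higher in Fraction 3 than in DZ without passing (1.67-fold, adjusted p = 0.302), and -0.15 ± 0.22 in GC-PB against Fraction 1 (adjusted p = 0.653).

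Icosl (chromosome 10, 78069302 to 78083913, plus strand) had the same outline at lower levels and with less certainty. Its level was 0.466, 0.197 and 0.413 in GC-PB, 0.471, 0.215 and 0.616 in Fraction 1, 1.32, 0.692 and 1.64 in Fraction 2, 1.01, 1.93 and 1.41 in Fraction 3, and 1.44, 1.10 and 1.16 in DZ. The 6 GC-PB and Fraction 1 libraries were again below the 9 others. Fraction 1 against Fraction 2 did not pass at -0.62 ± 0.21 (2.81-fold lower, adjusted p = 0.0810), while the differences of -0.77 ± 0.21 in Fraction 1 against Fraction 3 (adjusted p = 0.0136) and -0.65 ± 0.21 against DZ (adjusted p = 0.0355) did. As deposited these last 2 differences turned to 0.055 and 0.11, neither passing, and leaving out a library ended the call in 2 of 6 cases for Fraction 3 and in 5 of 6 for DZ. Over all alternatives the adjusted p ran from 0.00711 to 0.871 against Fraction 3 and from 0.0184 to 0.707 against DZ. GC-PB and Fraction 1 differed by -0.07 ± 0.21 (adjusted p = 0.832). Log2 levels of Icosl and Efnb1 had a Pearson correlation of 0.89 over the 15 libraries, which share the divide.

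**Figure D2:**
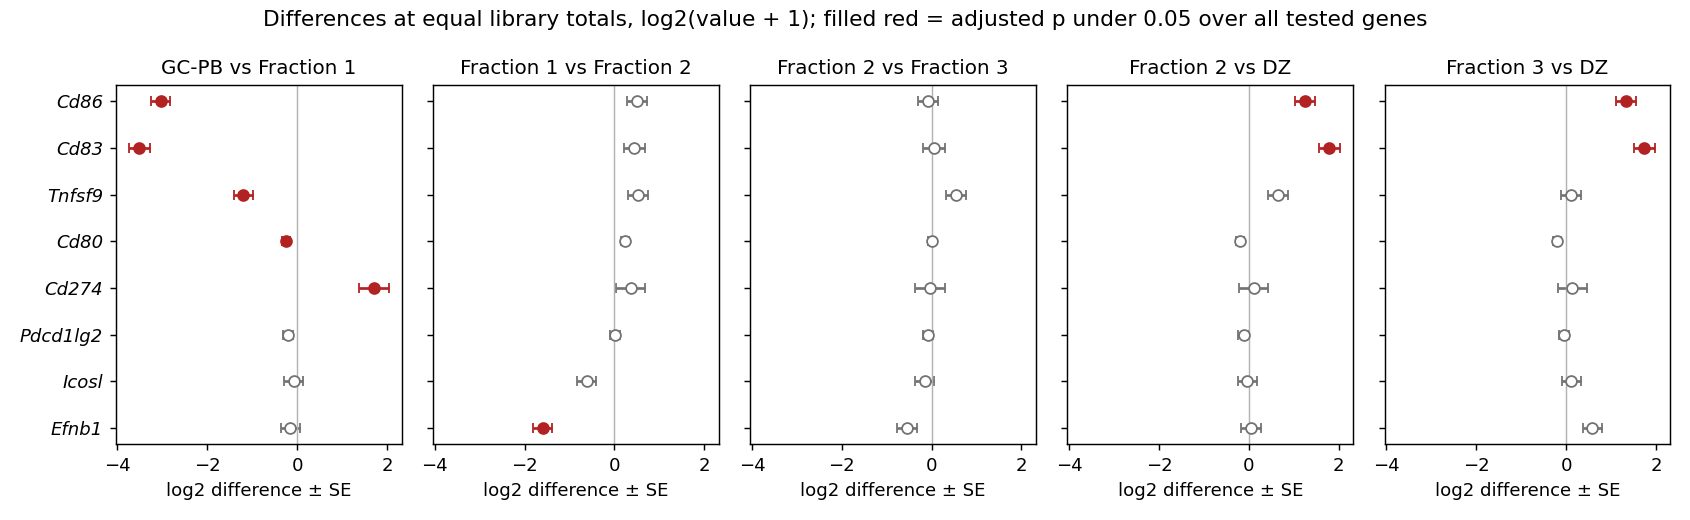
The horizontal axis of each panel is the log2 difference ± SE at equal library totals for the 8 tested members, in GC-PB against Fraction 1, Fraction 1 against Fraction 2, Fraction 2 against Fraction 3, Fraction 2 against DZ and Fraction 3 against DZ. Filled red points passed at an adjusted p under 0.05, 1 member higher and 4 lower in GC-PB against Fraction 1, Efnb1 lower in Fraction 1 against Fraction 2, none in Fraction 2 against Fraction 3, and Cd86 and Cd83 higher than DZ in Fractions 2 and 3.

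In GC-PB against Fraction 1, 5 of 8 tested members passed, with Cd274 higher and Cd86, Cd83, Tnfsf9 and Cd80 lower. Cd86 among them was gated as high in Fraction 1. Of all tested genes 36.3% passed in that comparison, 14.1% higher and 22.3% lower, so the count among 8 genes stands against a high background. The median difference of the members was -0.22, or -0.11 with members at their floor, beside -0.06 over all tested genes. Fraction 2 and Fraction 3, the CD69hi and CD69lo cells of the Bcl6hi light zone, had no tested member that passed by limma, 0 of 8, beside 0.688% of all tested genes, and 2 members had an unadjusted p under 0.05. Those with the largest differences were Efnb1 at -0.54 ± 0.22 and Tnfsf9 at 0.54 ± 0.22. The median difference was -0.06, beside 0.00 over all tested genes.

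Set in order of mean level, neighbouring groups were separated in few places. The order draws on 5 further pairs of groups, in which 6 of 8 members passed in GC-PB against Fraction 2 (35.8% of all tested genes), 5 in GC-PB against Fraction 3 (37%), 6 in GC-PB against DZ (35.9%), 3 in Fraction 1 against Fraction 3 (21%) and 5 in Fraction 1 against DZ (21.1%). At equal totals, for Cd86 and Cd83 no pair of the 3 light zone fractions passed, although every Fraction 1 library was above those of Fraction 2 and Fraction 3, and the steps down to DZ and from DZ to GC-PB passed. The order for Cd86 was Fraction 1, Fraction 3, Fraction 2, DZ and GC-PB, and for Cd83 it was Fraction 1, Fraction 2, Fraction 3, DZ and GC-PB. For Efnb1 the only neighbours that passed were DZ and Fraction 1 (adjusted p = 2.02e-05), below Fraction 3 and Fraction 2 and above GC-PB. For Cd274 the only neighbours that passed were GC-PB and Fraction 1. No neighbours in the order passed for Cd80, Icosl, Pdcd1lg2 or Tnfsf9.

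**Figure D3:**
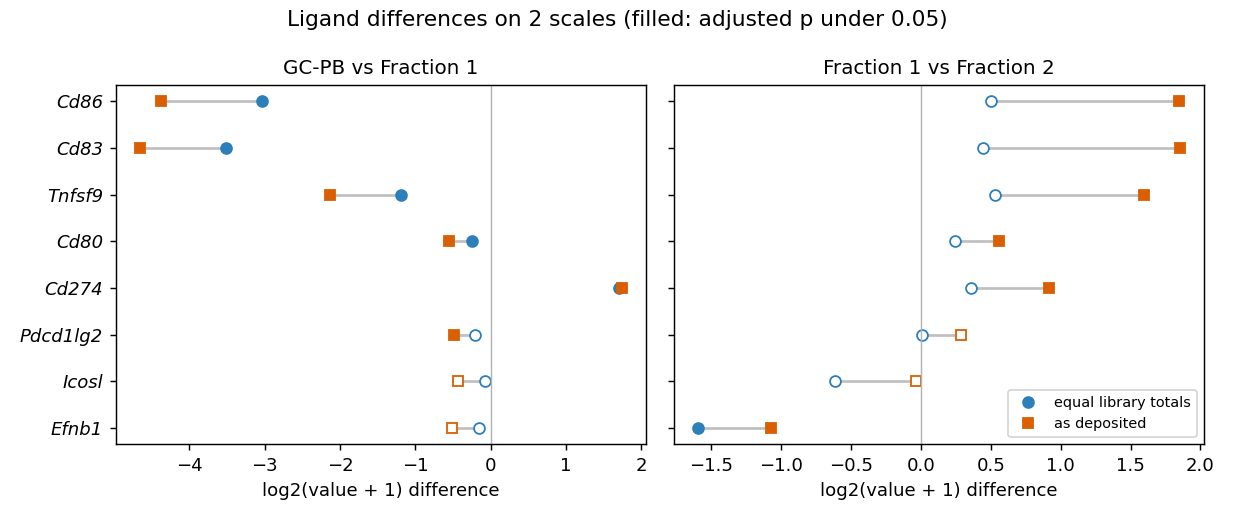
The log2 difference of each tested member is plotted at equal library totals and as deposited, for GC-PB against Fraction 1 and for Fraction 1 against Fraction 2, and filled points passed. In Fraction 1 against Fraction 2, Cd86 reads 0.50 at equal totals and 1.84 as deposited, while Efnb1 is lower on both scales at -1.60 and -1.07, and in GC-PB against Fraction 1 Cd274 reads 1.71 and 1.74.

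Among 5591 tested genes at or above the median level, those with the pattern most like a member were found by Pearson correlation of log2 levels over the 15 libraries, a description with no test. For Cd86 they were Idi1 (0.97), Ncf1 (0.96) and Nfkb1 (0.95), and for Cd83 they were Slamf1 (0.97), Fcer2a (0.97) and Ccdc115 (0.96). Cd274 was most like Plac8, Tmem176a and Trib1, each at 0.96. All of these were, like Cd274, highest in GC-PB replicate 1, the library that stood apart, at 10.9, 10.2 and 15.8. Tnfsf9 was most like Imp4 (0.93), Atp11a (0.92) and Snhg12 (0.91). The genes nearest to Icosl were Treml2 (0.92), Sun2 (0.92) and Ranbp9 (0.90). Efnb1 was nearest to Ptprc (0.97), Lyl1 (0.97) and the Y-linked Ddx3y (0.96), the last of which is the gene that marks the divide between the libraries.

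The receptors through which T cells read these ligands were looked for in the same libraries, as a list of 11 genes of which 3 were tested. Cd28, the receptor of CD80 and CD86, was at 10.0, 11.2 and 8.47 in GC-PB and at 0.235, 0 and 0 in Fraction 1, higher by 3.34 ± 0.17. Cd28 met the filter of 3 libraries above 0 only with the GC-PB libraries counted, so its p-value is no support and is left out. Ctla4, the inhibitory receptor of the same ligands, was at 6.29, 2.76 and 3.51 in GC-PB and at 0, 0 and 0.123 in Fraction 1, higher by 2.26 ± 0.19 (adjusted p = 7.05e-09). Both receptors were present in the libraries in which Cd86 was at 0, and no germinal centre library held more than 3 molecules of either. T cell markers did not accompany them. Of 8 (Cd3e, Cd3d, Cd3g, Cd4, Cd8a, Trat1, Thy1 and Il7r), 7 were at 0 in all GC-PB libraries, and their summed level was 0 to 0.413 in GC-PB and 0.107 to 0.246 in Fraction 1. Icos and Pdcd1 were at 0 in every GC-PB library. Cd28 and Ctla4 were 2 of the 3 tested genes of the list, whose median difference in GC-PB against Fraction 1 was 2.26 beside -0.06 over all tested genes, of which 36.3% passed, and in the other 4 comparisons 0 of 3 passed by limma, 0 had an unadjusted p under 0.05, and the median lay between -0.18 and 0.17.

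**Figure D4:**
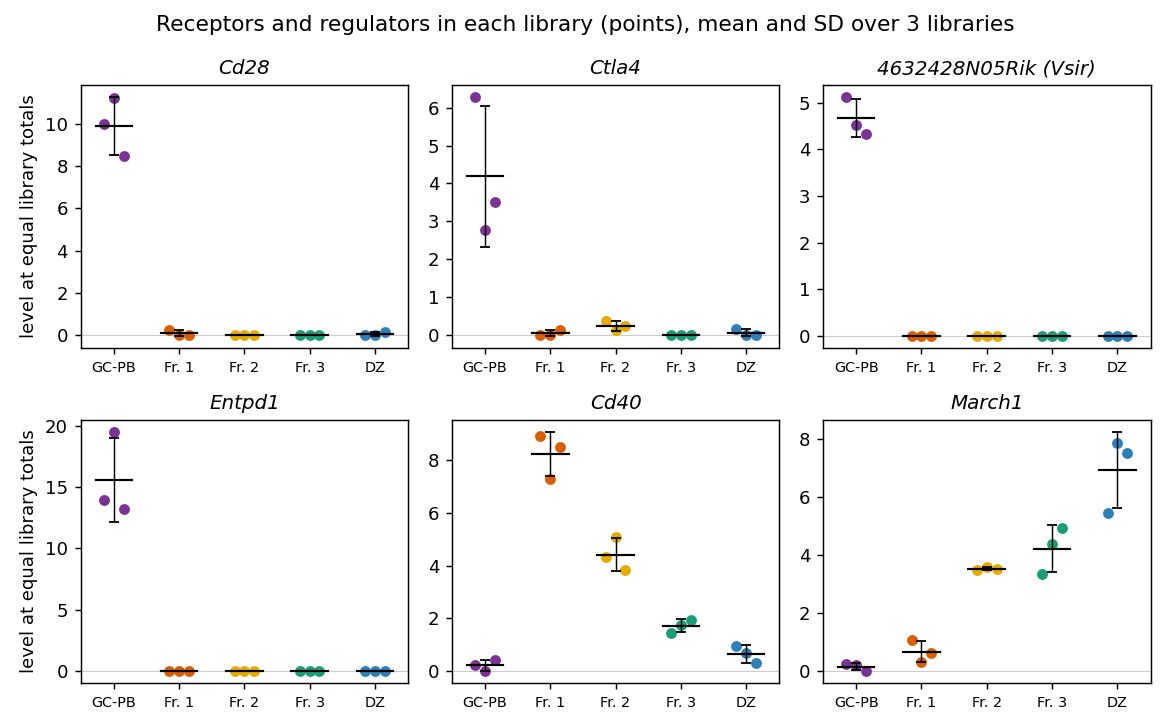
Level at equal library totals (vertical axis) of the receptors Cd28 and Ctla4, the signals 4632428N05Rik, Entpd1 and Cd40, and the ubiquitin ligase March1, with the 3 libraries of each group as points, the mean and SD as lines, and GC-PB, Fraction 1, Fraction 2, Fraction 3 and DZ from left to right. The first 4 genes are high in GC-PB, Cd40 is highest in Fraction 1 at 7.31 to 8.94, and March1 is highest in DZ at 5.45 to 7.87.

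Other surface and secreted signals between B and T cells formed a list of 36 genes, 24 of them tested. In GC-PB against Fraction 1, 7 rose and 8 fell, beside 36.3% of all tested genes that passed, with a median difference of -0.20, or 0.00 with genes at their floor, beside -0.06 over all tested genes. Entpd1 (CD39), an enzyme that breaks down extracellular ATP, was at 14.0, 19.5 and 13.2 in GC-PB and at 0 in every other library, at least 42.1-fold higher than in Fraction 1. 4632428N05Rik, an older symbol of Vsir, which encodes the inhibitory ligand VISTA, was at 5.12, 4.53 and 4.34 in GC-PB and at 0 elsewhere, at least 12.6-fold higher. Both are among the 7 that rose. They met the filter of 3 libraries above 0 only through the GC-PB libraries, so their p-values are no support and are left out.

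In the other 4 comparisons 1 to 4 genes of that list passed, beside 1.05% of all tested genes in Fraction 3 against DZ, 3.5% in Fraction 2 against DZ, 0.688% in Fraction 2 against Fraction 3 and 9.03% in Fraction 1 against Fraction 2. Cd72, a B cell coreceptor that binds the semaphorin CD100, rose in Fraction 3 to 5.21 against 1.67 in DZ (1.21 ± 0.22, 3.12-fold, adjusted p = 0.00646), 1 of 24, and its call was lost as deposited (1.07), without Fraction 3 replicate 2 (1.01) and with the groups compared only. Cd40, the receptor for T cell help, was at 0.233, 0 and 0.413 in GC-PB, 8.94, 7.31 and 8.49 in Fraction 1, 4.33, 5.07 and 3.83 in Fraction 2, 1.45, 1.75 and 1.94 in Fraction 3, and 0.961, 0.690 and 0.289 in DZ. The 4 germinal centre groups did not overlap in Cd40. It rose in Fraction 2 over DZ by 1.73 ± 0.20 (6.82-fold, adjusted p = 1.36e-05), where 1 of 24 rose and Cd24a fell (-0.48 ± 0.13, adjusted p = 0.0388), a call lost as deposited (-0.14) and in 4 of the 6 cases of leaving out a library. Cd40 was also the 1 of 24 that rose in Fraction 2 over Fraction 3 (0.99 ± 0.20, 2.58-fold, adjusted p = 0.0224), a call that 5 of the 6 cases of leaving out a library ended. In Fraction 1 against Fraction 2, 2 rose and 2 fell, with Sema4d (CD100) at -0.96 ± 0.20 (adjusted p = 0.00408) and Cd24a at -0.51 ± 0.13 (adjusted p = 0.0133), and as deposited these 2 turned to 0.26 and 0.90. The call of Cd24a there was also lost by median ratios (-0.41) and in 3 of the 6 cases of leaving out a library, and with the groups compared only both calls were lost. The list's median difference was between -0.01 and 0.00 in these 4 comparisons, beside -0.04 to 0.01 over all tested genes.

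Of 20 genes listed because their products act on the ligand proteins, 18 were tested. March1 encodes a ubiquitin ligase that removes CD86 and MHC class II from the surface. It was at 0.233, 0.197 and 0 in GC-PB, 1.06, 0.322 and 0.616 in Fraction 1, 3.49, 3.57 and 3.50 in Fraction 2, 3.33, 4.38 and 4.93 in Fraction 3, and 5.45, 7.87 and 7.52 in DZ. The light zone libraries were all below DZ, and Fraction 1 below the other 2 fractions. March1 fell in Fraction 2 against DZ (-0.80 ± 0.20, 1.97-fold lower, adjusted p = 0.0260), a call lost as deposited (-0.50) and in 5 of the 6 cases of leaving out a library. In Fraction 1 it was below Fraction 2 (-1.46 ± 0.20, 5.29-fold lower, adjusted p = 7.03e-05), across the divide. As deposited that difference was -0.74 (adjusted p = 0.0119).

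Stt3a and Stt3b, the catalytic subunits of the enzymes that attach N-linked sugars, were the others named. Stt3a rose in Fraction 3 against DZ by 1.02 ± 0.20 (2.93-fold, adjusted p = 0.0108) and in GC-PB against Fraction 1 by 1.73 ± 0.20 (4.06-fold, adjusted p = 4.36e-07). Stt3b rose in Fraction 3 (0.62 ± 0.13, adjusted p = 0.0156) and Fraction 2 (0.55 ± 0.13, adjusted p = 0.0155) against DZ, and it fell in GC-PB against Fraction 1 (-0.66 ± 0.13, adjusted p = 0.000250). In Fraction 3 against DZ both calls were lost as deposited (0.87 and 0.54), and leaving out a library ended them in 4 of 6 cases for Stt3a and 5 of 6 for Stt3b. In Fraction 1 against Fraction 2, Stt3b was at -0.48 ± 0.13 (adjusted p = 0.0210), which turned to 0.91 as deposited. Leaving out a library ended the calls of Stt3b in 3 of 6 cases in Fraction 2 against DZ and in 4 of 6 in Fraction 1 against Fraction 2. The first was also lost with the groups compared only, and the second by median ratios (-0.37). The numbers of the 18 that passed were 2 higher in Fraction 3 against DZ, 1 higher and 1 lower in Fraction 2 against DZ, 3 lower in Fraction 1 against Fraction 2, and 2 higher and 4 lower in GC-PB against Fraction 1. Of all tested genes 1.05%, 3.5%, 9.03% and 36.3% passed in these 4 comparisons, in the same order. In Fraction 2 against Fraction 3, 0 of 18 passed by limma, and 2 had an unadjusted p under 0.05. List medians lay between -0.09 and -0.01, beside -0.06 to 0.01 over all tested genes. Of 20 other ephrins and Eph receptors, 3 were tested and 0 passed by limma in the 5 comparisons, with 1 at an unadjusted p under 0.05 in Fraction 2 against DZ and 1 in Fraction 1 against Fraction 2. Their summed level was at most 0.699 in any library, and their median difference lay between -0.15 and 0.15, or between 0.00 and 0.07 with genes at their floor.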

How the data were processed

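The deposited table holds a signal per gene and library for which the files name no unit, and per the submitters' processing notes reads were aligned with TopHat2 (version not given) to mm10. Per the labels' protocols, the authors added ERCC spike-in RNA and tagged cDNA with molecular barcodes, and how the deposited signal was scaled is not given in the sources used here. A library's most frequent value was taken as its constant, and only 91.0% to 92.6% of the nonzero values were whole multiples of it (tolerance 0.02), so no count test was used.

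Values were scaled to equal totals without Rn45s (3.31% to 9.97% of the totals, which were 27942 to 115088). A signal above 0 in at least 3 of 15 libraries was required, and log2(level + 1) was fitted with 5 group means by limma (version 3.58.1, trend on mean level) under R 4.3.3. The fit was also run on simulated data, with the same spread for all genes and changes only in Fraction 1, at or above the median level. That run does not cover members near the floor or comparisons in which many genes change. Of 9 members, 8 were tested. The main comparisons numbered 5, and the other 5 pairs served the order of levels. Figures were drawn with matplotlib 3.10.9. The members and lists were chosen with earlier results of these data known. Named genes are all members, up to 2 genes with the smallest p per related list and comparison, and the 3 most alike genes for members with a group mean of at least 1. Btla and Klf2 were named after their values were seen. Positions are from GENCODE vM21 (GRCm38). Alternatives were the deposited scale, median ratios, pseudocounts of 0.25 and 4, filters of 1 and 8 libraries, no trend, the groups compared only, a replicate block and each library left out. Replicate numbers did not pair the libraries. Proteins and 3 promoters were not used here. A marker list of resting B cells is not reported here.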

Additional observations from a re-analysis of the deposited data

How the results depend on the processing

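Of the genes passing over the whole table, 118 in Fraction 3 against DZ became 27 as deposited, 74 with a pseudocount of 0.25 and 0 with the groups compared only, where limma gave 1147 at an unadjusted p under 0.05. In Fraction 2 against DZ, 392 became 261 with the groups compared only. In Fraction 2 against Fraction 3, 77 became 301 as deposited, 45 by median ratios, 47 with a pseudocount of 0.25 and 0 with the groups compared only (1414 unadjusted). As deposited, 1011 in Fraction 1 against Fraction 2 became 6183, and 4064 in GC-PB against Fraction 1 became 6380. With each library left out, these counts ran from 43 to 94 in Fraction 3 against DZ, 208 to 273 in Fraction 2 against DZ, 17 to 36 in Fraction 2 against Fraction 3, 531 to 670 in Fraction 1 against Fraction 2 and 3487 to 3878 in GC-PB against Fraction 1. Members that passed in Fraction 1 against Fraction 2 were 1 in the fit reported, 6 as deposited, 2 without the trend, 2 with the groups compared only and 1 to 2 with a library left out. They were 3 instead of 5 in GC-PB against Fraction 1, and 0 instead of 2 in Fraction 3 against DZ (4 unadjusted), with the groups compared only. With a library left out they were 4 to 5 and 2, and in Fraction 2 against Fraction 3 they were 0. The sign reversed as deposited for Icosl in Fraction 1 against DZ (0.11) and Fraction 3 (0.055), and for Sema4d (0.26), Cd24a (0.90) and Stt3b (0.91) in Fraction 1 against Fraction 2. The deposited scale carries the difference in library totals, which shifted the all-gene median by 0.64 in that comparison, -0.42 in GC-PB against Fraction 1, 0.15 in Fraction 2 against Fraction 3 and 0.13 in Fraction 2 against DZ; the cause of the other changes was not tested. Of 1190 member values under an alternative, 35 passed in neither setting and changed sign. In the fit reported the largest of these was 0.15 in size. Under the alternatives they reached 0.27, for Pdcd1lg2 in Fraction 1 against Fraction 3 as deposited. The replicate numbers share only a number. Same-numbered libraries had correlations of their deviations from -0.06 to 0.05, and 3 of 15 correlated best with their own number. With a replicate block, 40 genes in place of 77 passed in Fraction 2 against Fraction 3, and it changed no call of a member. Depth limits Cd80, Pdcd1lg2 and Tnfrsf14, whose levels lie at or under 3 molecules in every library. It also limits Icosl, Efnb1 and Tnfsf9 in GC-PB, and Cd274 in Fraction 2, Fraction 3 and DZ, all under 3 molecules per library.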
